A study of Mus musculus with 6 samples.

Results

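The 4 mouse tropomyosin genes Tpm1, Tpm2, Tpm3 and Tpm4 were examined with every transcript listed under them, 4 of 35976 genes and 48 of 106521 transcripts in the RNA-seq tables. The genes were taken by symbol, with no threshold on their levels, but earlier results of these data were known when they were chosen. RNA came from 3 NF-YAcKO and 3 NF-YAfl/fl cultures of satellite cells, the Pax7-expressing stem cells of skeletal muscle. As given in the labels, the mice were aged 5 to 7 weeks at the tamoxifen injections (20 mg/ml) that both genotypes received. The sample titles number the replicates without naming mice. Both genotypes carry floxed NF-YA alleles, and in NF-YAcKO mice tamoxifen also activates a Cre recombinase driven by the Pax7 promoter, so that the deletion is limited to cells that expressed Pax7. NF-YA is the regulatory subunit of NF-Y, a transcription factor that binds the CCAAT box. The cells were enriched from hindlimb muscle by magnetic depletion of other cell types and were kept in growth medium for 4 days, and the question was how loss of NF-YA alters their transcriptome.

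Tropomyosins are coiled-coil proteins that lie end to end along the actin filament and decide which other proteins can bind to it. In striated muscle they hold the myosin sites of the thin filament closed until calcium binds troponin, while shorter cytoplasmic forms mark different actin filaments of the cytoskeleton. Different proteins are made by choosing between alternative first exons, between the internal exons 6a and 6b, and between alternative last exons. Not every gene uses all of these choices. Skeletal muscle uses the exons 9a and 9b at the end, and many other cells use exon 9d. Exon 9a encodes nearly all of the striated end of the protein, which lies in its troponin-binding and overlap region.

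Transcripts ending in exon 9a and 9b were the main Tpm1 form in NF-YAfl/fl cells, those ending in exon 9d in NF-YAcKO cells. The coding bases of these ends are therefore shown, read 5' to 3' along the minus strand of chromosome 9 (GRCm38, exon 9a at chr9:67029664-67029742 and the coding part of exon 9d at chr9:67023362-67023441). Capitals mark the positions that differ from the other exon of the pair, and 34 of 79 positions were the same.
Tpm1 exon 9a: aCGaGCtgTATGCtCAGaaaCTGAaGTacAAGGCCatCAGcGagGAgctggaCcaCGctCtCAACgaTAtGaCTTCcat
Tpm1 exon 9d, coding part: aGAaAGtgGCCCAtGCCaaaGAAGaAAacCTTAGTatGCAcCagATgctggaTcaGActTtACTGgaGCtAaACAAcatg

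Exon 6a transcripts held a larger share in NF-YAcKO in both Tpm1 and Tpm2. Shares of the alternative 76-base internal exons of Tpm3 overlapped between genotypes. The exons 6a and 6b of Tpm1 and Tpm2 are therefore shown as well. They lie at chr9:67032466-67032541 (Tpm1 exon 6a), chr9:67031951-67032026 (Tpm1 exon 6b), chr4:43519003-43519078 (Tpm2 exon 6a) and chr4:43518644-43518719 (Tpm2 exon 6b), all on the minus strand and wholly coding. Each is 76 bases long, and capitals mark the positions that differ between exons 6a and 6b of the same gene.
Tpm1 exon 6a: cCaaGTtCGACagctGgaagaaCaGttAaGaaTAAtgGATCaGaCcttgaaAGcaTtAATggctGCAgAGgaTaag
Tpm1 exon 6b: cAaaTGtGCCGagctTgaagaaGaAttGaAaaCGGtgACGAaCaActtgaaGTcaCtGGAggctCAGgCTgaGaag
Tpm2 exon 6a: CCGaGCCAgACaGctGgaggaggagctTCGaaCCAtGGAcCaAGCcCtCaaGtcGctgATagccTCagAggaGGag
Tpm2 exon 6b: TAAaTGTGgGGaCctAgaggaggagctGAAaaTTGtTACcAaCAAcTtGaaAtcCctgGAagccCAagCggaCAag
Compared position by position, exons 6a and 6b shared 43 of 76 bases in Tpm1 and 41 of 76 in Tpm2. The same exon was more alike between the genes, with 49 of 76 bases shared by both exons 6a and 56 of 76 by both exons 6b.

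The libraries held 26936230 to 41118984 expected counts, and 3 counts correspond to 0.073 to 0.111 CPM (counts scaled to TMM-normalised library size). The entry for the deleted Nfya allele took 27.3%, 32.0% and 40.5% of the gene's TPM, a length-scaled level, in NF-YAcKO and 0% in each NF-YAfl/fl library, so that other Nfya transcripts remained in NF-YAcKO. Total Nfya was 27.5 ± 0.874 CPM in NF-YAcKO and 28.7 ± 7.20 CPM in NF-YAfl/fl (SD, n = 3). The X-linked RNA Xist was at 836 to 852 CPM in all NF-YAcKO libraries and at 0.306 to 0.475 CPM in NF-YAfl/fl, and the Y-linked gene Ddx3y was at 0.047 to 0.0957 CPM against 80.9 to 88.6 CPM. The sex of the cells, as these genes show it, and the genotype cannot be told apart in any comparison here. The cultures also differed in markers of other cells. All 5 markers of differentiating myocytes (Myog, Tmem8c, Gm7325, Myh3 and Ckm) were lower in NF-YAcKO (summed level 19.4 to 60.4 CPM against 4761 to 5901 CPM). All 5 macrophage markers were higher (116 to 228 CPM against 3.73 to 10.02 CPM), with Ptprc at 0 in 1 NF-YAfl/fl library. Of 6 markers of satellite cells and myoblasts 1 was called lower by the rule given below, Cdh15. Itga7 was also lower, and Pax7 and Vcam1 higher, without overlap between genotypes. Of 6 markers of smooth muscle and pericytes 1 was called lower, Acta2, while Rgs5 was lower and Tagln higher without overlap. Of 5 markers of fibro-adipogenic progenitors 1 was called higher, Lum, with Dcn higher without overlap. Of 3 endothelial markers 1 was called higher, Kdr, with Pecam1 higher without overlap. The remaining markers of these types overlapped. Among all tested genes 7.67% were called lower and 4.65% higher. In such bulk cultures fewer cells of a type and less RNA per cell cannot be told apart, and the part of the cell mixture in the values below was not tested.

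Of the 4 genes, Tpm2 fell and the other 3 did not pass the test. A gene or transcript was called with a Benjamini-Hochberg FDR under 0.01 in edgeR's quasi-likelihood test together with a log2 fold change of more than 1 in size. By this rule 7.67% of the 17348 tested genes were lower and 4.65% were higher in NF-YAcKO, with a median log2 fold change of -0.02 over all tested genes. Tpm1 and Tpm2 had whole expected counts in 6 of 6 libraries, whereas Tpm3 and Tpm4 had fractional counts in all, which arise when reads are split with other genes.

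Tpm2, which encodes beta-tropomyosin of skeletal and smooth muscle, was at 237, 233 and 242 CPM in the NF-YAcKO libraries and at 994, 785 and 739 CPM in the NF-YAfl/fl libraries. Every NF-YAcKO value lay below every NF-YAfl/fl value. The log2 fold change was -1.82 ± 0.136 (SE), with an edgeR FDR of 0.000288.

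Tpm3, the source of slow-muscle alpha-tropomyosin and of abundant cytoplasmic forms, was at 437, 436 and 419 CPM in NF-YAcKO and at 291, 308 and 223 CPM in NF-YAfl/fl. The libraries did not overlap, but the log2 fold change of 0.65 ± 0.136 was below the size required, and the FDR was at the limit (0.01, edgeR). Tpm4, whose products are cytoplasmic, was at 1081, 1024 and 943 CPM in NF-YAcKO and at 827, 821 and 442 CPM in NF-YAfl/fl. NF-YAfl/fl replicate 3 stood well below the others. The log2 fold change was 0.54 ± 0.241 (edgeR FDR 0.116), and 0.30 without that library (FDR 0.0316).

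Tpm1, which encodes alpha-tropomyosin of fast and cardiac muscle as well as cytoplasmic forms, gave overlapping values of 1197, 1135 and 1045 CPM in NF-YAcKO and 1145, 1092 and 902 CPM in NF-YAfl/fl. Its log2 fold change was 0.11 ± 0.128 (edgeR FDR 0.546). On the TPM scale, which divides counts by the length of the transcripts in use, Tpm1 was at 902, 732 and 767 in NF-YAcKO and 1059, 1155 and 714 in NF-YAfl/fl, a lower mean in NF-YAcKO with overlapping libraries. The deposited effective length of Tpm1 was 1494 to 1502 nt in NF-YAcKO and 1179.7 to 1287 nt in NF-YAfl/fl. The direction of the Tpm1 gene difference thus turned with the scale, while that of the other 3 genes did not.

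**Figure D1:**
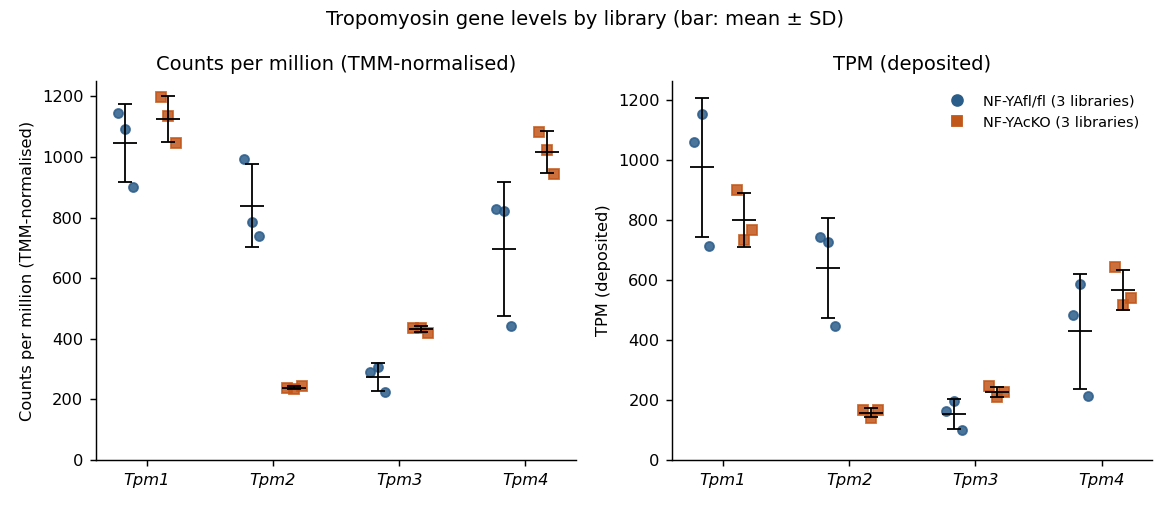
Levels of the 4 tropomyosin genes in each library, as TMM-normalised CPM (left panel) and as deposited TPM (right panel), for NF-YAfl/fl (circles) and NF-YAcKO (squares), with mean ± SD over 3 libraries as bars. Tpm2 lies at 233 to 242 CPM in NF-YAcKO and at 739 to 994 CPM in NF-YAfl/fl, and Tpm1 overlaps on both scales.

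Levels of different genes were compared per length, as shares of the summed TPM of the 4 genes. Tpm2 held 9.03% ± 0.695 of this sum in NF-YAcKO and 29.3% ± 1.74 in NF-YAfl/fl (SD, n = 3). Tpm4 held 32.3% ± 0.515 against 18.8% ± 3.83, and Tpm3 12.97% ± 0.379 against 6.91% ± 0.400. For these 3 genes the genotypes did not overlap, and the exact two-sided permutation test gave p = 0.1, the smallest it allows with 3 against 3 libraries. Tpm1 held 45.7% ± 0.518 against 45.0% ± 2.95 and overlapped (p = 0.8, exact permutation test). In order of TPM, Tpm1 led in all 6 libraries. Tpm4 was next and Tpm2 last in each NF-YAcKO library, whereas Tpm2 was next and Tpm3 last in each NF-YAfl/fl library, and in NF-YAfl/fl the ranges of Tpm1 and Tpm2 (714 to 1155 and 447 to 743 TPM) and of Tpm2 and Tpm4 (215 to 587 TPM) overlapped. Neighbours in the order did not overlap in NF-YAcKO. The summed TPM of the 4 genes was 1751 ± 183 in NF-YAcKO and 2197 ± 634 in NF-YAfl/fl and overlapped.

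At the level of transcripts, forms of the same gene moved in opposite directions. Of the 48 transcripts, 14 were at 0 in all libraries and 29 had counts enough to be tested. Among these, 4 were called lower (3 of Tpm2 and 1 of Tpm1) and 2 higher (1 of Tpm1 and 1 of Tpm3), where 1.01% of the 45367 tested transcripts were lower and 0.39% higher. Members that passed the filter only through the genotype in which they are high had to differ, so these counts do not stand for all members. At an FDR under 0.05 there were 8 tropomyosin transcripts with a difference in either direction, and 15 had an unadjusted p under 0.05 (edgeR). The share of all tested transcripts was not determined at these looser limits or with DESeq2, so those counts have no background beside them. The calls at an FDR under 0.01 were fragile. DESeq2 gave 7 lower and 6 higher, and leaving out any single library left 0 to 2 lower and 0 or 1 higher, although no called transcript changed direction. A transcript level is RSEM's estimate of how shared reads split, and this uncertainty is not in the test.

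**Figure D2:**
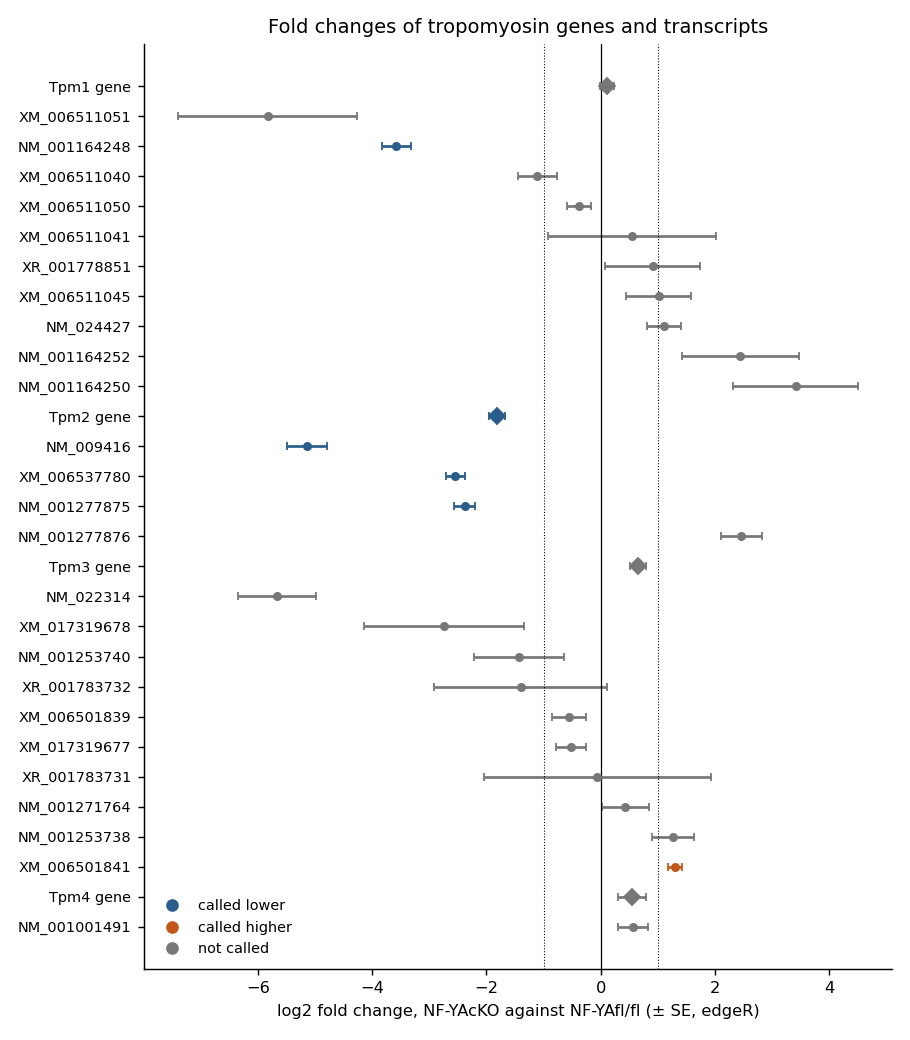
Log2 fold changes of NF-YAcKO against NF-YAfl/fl (horizontal axis, ± SE, edgeR) for the 4 genes (diamonds) and their named tested transcripts (circles), with dotted lines at -1 and 1. Tpm2 transcripts run from -5.14 to 2.46 around a gene value of -1.82, and transcripts at or near 0 throughout 1 genotype are left out.

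Shares within a gene were read from the deposited percent of the gene's TPM. A share moved by over 10 percentage points without overlap between genotypes in 7 of 28 tested members of the genes with several transcripts (4 higher and 3 lower in NF-YAcKO). The same held for 7.74% of the 37881 tested transcripts of all such genes. No share test could pass 0.05 with 3 against 3 libraries. For grouping by exons, 17 of the 48 transcripts could be placed on annotated exons (GENCODE M21, GRCm38). These held 94.1% to 95.8% of Tpm1 TPM, 59.5% to 71.9% of Tpm3 TPM and all of Tpm4, but 53.5% to 58.6% of Tpm2 TPM in NF-YAcKO and 29.4% to 31.0% in NF-YAfl/fl.

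**Figure D3:**
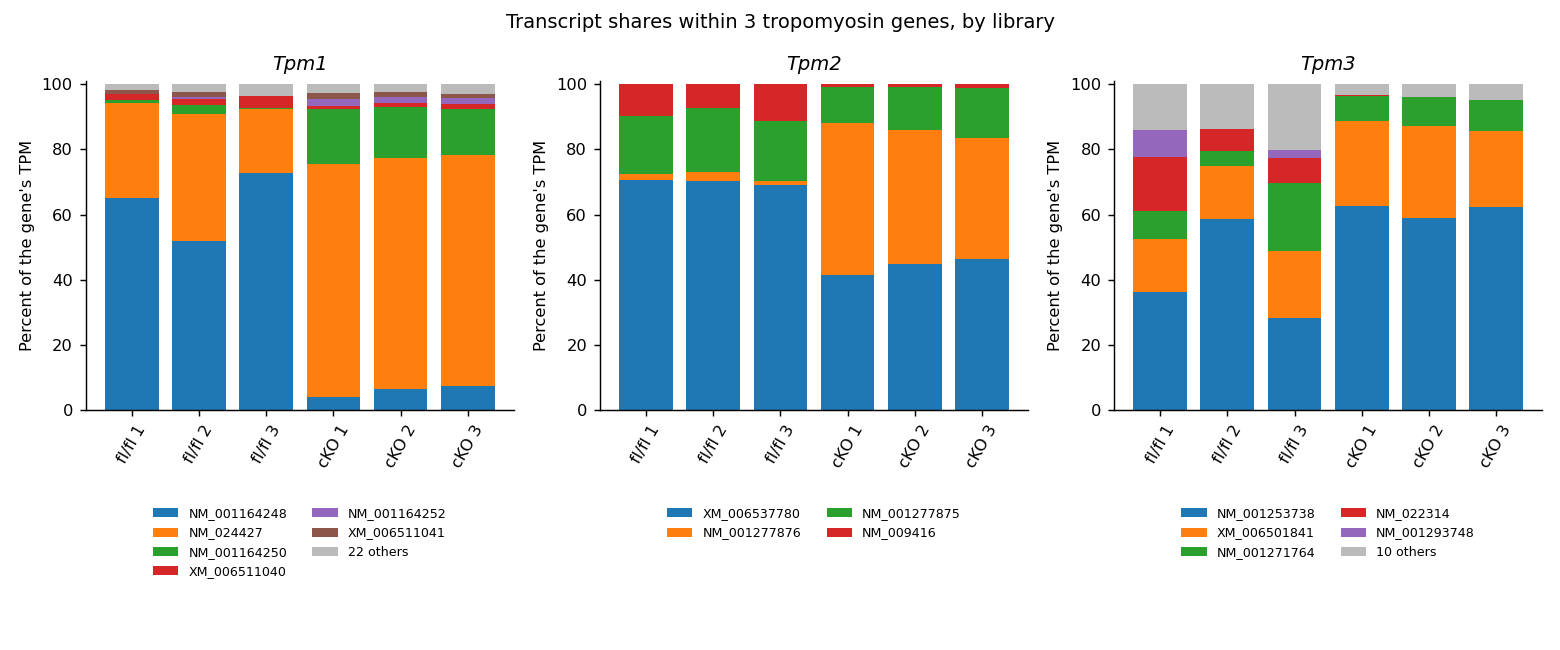
Percent of each gene's TPM (vertical axis) held by its leading transcripts in every library (horizontal axis, 3 NF-YAfl/fl then 3 NF-YAcKO) for Tpm1, Tpm2 and Tpm3, with the remaining transcripts in grey. The Tpm1 transcript NM_001164248 fills 51.8% to 72.8% of the NF-YAfl/fl bars and 3.93% to 7.35% of the NF-YAcKO bars.

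Tpm1 (chr9:67022590-67049406, minus strand, 28 transcripts) was not called as a gene, while the shares of its last exons did not overlap between genotypes. The striated form NM_001164248, with exons 6b, 9a and 9b, was at 32.6, 52.2 and 54.3 CPM in NF-YAcKO and at 640.0, 453 and 569 CPM in NF-YAfl/fl. All 3 NF-YAcKO values were far below the lowest NF-YAfl/fl value. Its log2 fold change was -3.58 ± 0.258 (edgeR FDR 0.00359), and with any single library left out the change lay between -3.71 and -3.38 with an FDR above 0.01. Its share of Tpm1 TPM was 3.93%, 6.53% and 7.35% in NF-YAcKO against 65.1%, 51.8% and 72.8% in NF-YAfl/fl.

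The form NM_024427, with exons 6b and 9d, was at 876, 835 and 770.2 CPM in NF-YAcKO and at 421, 507 and 227 CPM in NF-YAfl/fl. The libraries did not overlap, and the log2 fold change was 1.10 ± 0.294 (edgeR FDR 0.0776; DESeq2 0.00231). It held 71.5%, 70.8% and 70.8% of Tpm1 TPM in NF-YAcKO and 29.0%, 39.2% and 19.8% in NF-YAfl/fl. The form NM_001164250, with exons 6a and 9d, was at 209, 185 and 153 CPM against 17.1, 33.4 and 0.931 CPM. It did not overlap either, with NF-YAfl/fl libraries differing widely among themselves, and its log2 fold change was 3.41 ± 1.10 (edgeR FDR 0.127; DESeq2 0.00249).

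Taking all placed Tpm1 transcripts together, those ending in exon 9b held 4.49%, 7.21% and 8.30% of Tpm1 TPM in NF-YAcKO and 65.5%, 51.8% and 73.7% in NF-YAfl/fl. Those ending in exon 9d held 90.7%, 88.2% and 86.9% against 30.3%, 42.6% and 20.3%. Neither group of shares overlapped between genotypes, and the difference of -57.0 percentage points for exon 9b became -49.8 points as a share of expected counts (p = 0.1, exact permutation test).

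The choice of exon 6 moved less. Tpm1 transcripts with exon 6a held 17.6%, 16.4% and 15.1% in NF-YAcKO and 1.53%, 2.58% and 1.47% in NF-YAfl/fl, and those with exon 6b 78.9% ± 1.26 against 92.9% ± 1.24 (SD, n = 3). Exon 6a transcripts were thus a minority in all 6 libraries, and the groups did not overlap (p = 0.1, exact permutation test). A form that joins exon 6a to the striated end, NM_001164251, was at 4.59, 5.44 and 7.05 CPM in NF-YAcKO and at 0 in all NF-YAfl/fl libraries. It was called higher (edgeR FDR 0.00881) and was at least 56.3-fold higher against a floor of 3 counts per library. However, it passed the filter only through NF-YAcKO, so the direction of its difference was fixed beforehand. It made up under 1% of Tpm1 TPM, and without any single library the FDR rose above 0.01.

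Most Tpm1 TPM came from the same start in both genotypes. Transcripts from exon 1a, the first exon of the long forms, held 93.3% ± 0.347 in NF-YAcKO and 93.8% ± 1.37 in NF-YAfl/fl and overlapped (p = 0.8, exact permutation test). Every placed transcript detected from this start carried exon 2b, and the one placed form with exon 2a, which is known from smooth muscle, was at 0 in all libraries. Transcripts from exon 1b, the start of the short cytoplasmic forms, held 2.15%, 1.72% and 1.93% against 0.445%, 0.802% and 1.45%, low shares that did not overlap between genotypes (p = 0.1, exact permutation test). The leading one, NM_001164252, was at 25.8, 19.9 and 20.6 CPM against 1.33, 10.2 and 0.666 CPM, with a log2 fold change of 2.44 ± 1.02 (edgeR FDR 0.216). The short form with the striated end, NM_001164254, was at 0 or under 0.001 CPM in NF-YAcKO and at 3.36, 0 and 7.64 CPM in NF-YAfl/fl.

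Among the unplaced Tpm1 transcripts named here, XM_006511040 was at 7.47, 11.9 and 12.8 CPM in NF-YAcKO and at 18.5, 17.8 and 33.3 CPM in NF-YAfl/fl (log2 fold change -1.11 ± 0.340, edgeR FDR 0.112). XM_006511051 was at 0.193, 0.00221 and 0.891 CPM against 18.9, 39.7 and 3.80 CPM (log2 fold change -5.83 ± 1.57, FDR 0.0794, edgeR). Neither overlapped between genotypes. XM_006511041 (log2 fold change 0.55), XM_006511045 (1.01), XM_006511050 (-0.39) and XR_001778851 (0.91) were not called, and XM_006511046 and XM_011242715 were each detected in a single NF-YAcKO library.

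Tpm2 (chr4:43514711-43523765, minus strand, 4 transcripts) fell as a gene, while its exon 6a form had higher values in NF-YAcKO without passing the test. The striated form NM_009416, with exon 6b and the striated last exon, was at 3.15, 4.28 and 6.10 CPM in NF-YAcKO and at 197, 119 and 164 CPM in NF-YAfl/fl. No library of NF-YAcKO came near those of NF-YAfl/fl, and the log2 fold change was -5.14 ± 0.346 (edgeR FDR 0.0031). The form NM_001277875, with exon 6b and the 9d-type last exon, was at 32.1, 37.7 and 45.1 CPM against 229, 202 and 167 CPM (log2 fold change -2.38 ± 0.184, FDR 0.00401, edgeR). XM_006537780, which could not be placed on exons, fell as well, from 545, 434 and 377 CPM in NF-YAfl/fl to 70.6, 77.4 and 83.6 CPM in NF-YAcKO (log2 fold change -2.55 ± 0.166, FDR 0.00293, edgeR).

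The remaining Tpm2 form, NM_001277876, carries exon 6a and the 9d-type last exon. It was at 133, 117 and 111 CPM in NF-YAcKO and at 25.1, 29.1 and 11.5 CPM in NF-YAfl/fl. Its lowest NF-YAcKO value was above its highest NF-YAfl/fl value, with a log2 fold change of 2.46 ± 0.357. The edgeR FDR was 0.0166, above the limit. It was 0.00888 without NF-YAfl/fl replicate 3 and 0.0279 to 0.0645 without any other single library, whereas DESeq2 gave 5.34e-10.

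NM_001277876 held 46.7%, 40.9% and 37.2% of Tpm2 TPM in NF-YAcKO and 1.95%, 2.83% and 1.27% in NF-YAfl/fl. Over the placed transcripts alone, exon 6a made up 74.5% ± 5.08 in NF-YAcKO and 6.74% ± 2.72 in NF-YAfl/fl (SD, n = 3; p = 0.1, exact permutation test). The unplaced XM_006537780 held 44.3% ± 2.65 against 70.0% ± 0.894, and which exon 6 it carries was not determined, so that the exon 6a share of the whole gene is bounded only. If it carried exon 6b, the share would be the 41.6% ± 4.80 and 2.01% ± 0.782 of NM_001277876, and if it carried exon 6a it would be 85.9% ± 2.20 and 72.0% ± 1.55. The striated form NM_009416 went from 9.41% ± 2.08 in NF-YAfl/fl to 0.973% ± 0.291 in NF-YAcKO, also without overlap. Which last exon XM_006537780 carries was not determined either, so the share of the striated last exon in the whole gene is not known. As placed, the last exon of NM_009416 begins upstream of the 9d-type last exon and runs on through it.

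**Figure D4:**
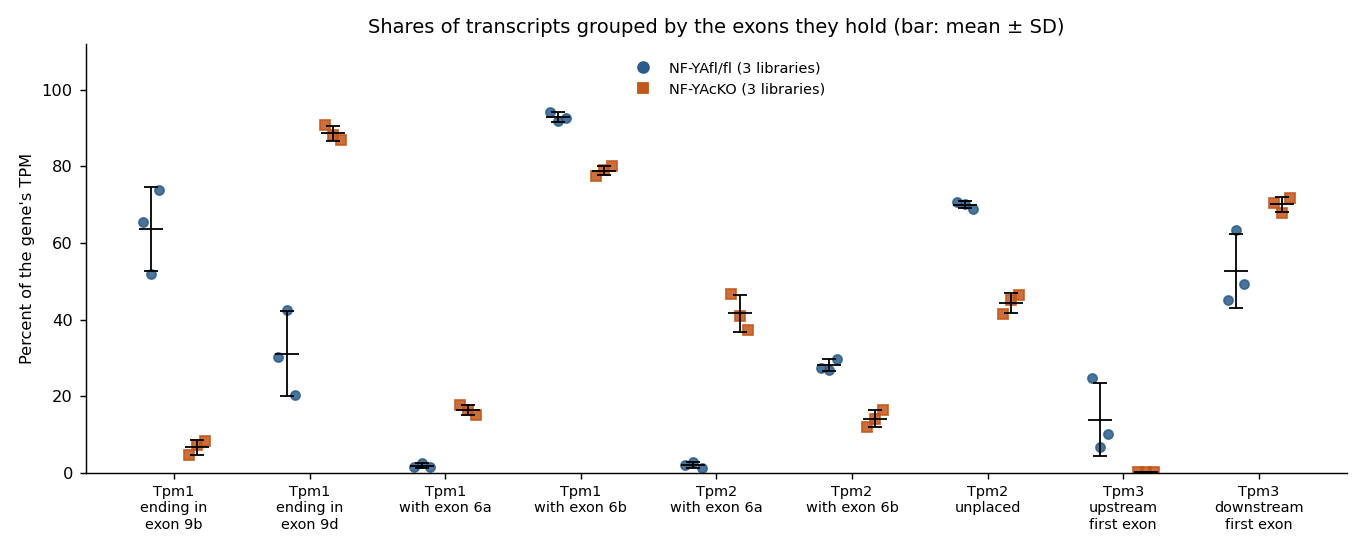
Percent of the gene's TPM (vertical axis) held by placed transcripts in NF-YAfl/fl (circles) and NF-YAcKO (squares) libraries, with mean ± SD of 3 as bars. They are grouped by last exon (Tpm1), exon 6 (Tpm1 and Tpm2) or first exon (Tpm3), beside the unplaced Tpm2 transcript. Exon 9b of Tpm1 lies at 51.8% to 73.7% in NF-YAfl/fl and 4.49% to 8.30% in NF-YAcKO, and exon 6a of Tpm2 at 1.27% to 2.83% and 37.2% to 46.7%.

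Tpm3 (chr3:90072649-90100902, plus strand, 15 transcripts) had a lower summed level of the placed forms of its upstream first exon, which starts the long muscle proteins. Neither placed form was called. NM_022314, from this exon, shares an alternative internal exon (chr3:90088401-90088476) and the last exon with NM_001253738, the main transcript of the downstream first exon. It was at 0.308, 0.907 and 0.423 CPM in NF-YAcKO and at 49.3, 19.8 and 16.2 CPM in NF-YAfl/fl. The genotypes were far apart, with NF-YAfl/fl replicate 1 the highest. The log2 fold change was -5.67 ± 0.688, and the edgeR FDR of 0.0107 was just above the limit, while DESeq2, limma on TPM and the filterByExpr filter of edgeR put it below.

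NM_001293748, which joins the upstream start to a striated-type last exon, was at 0 in all NF-YAcKO libraries and at 11.4, 0 and 2.62 CPM in NF-YAfl/fl, and was not called (edgeR FDR 0.187). Together the placed transcripts of the upstream first exon held 0.0693%, 0.200% and 0.0976% of Tpm3 TPM in NF-YAcKO and 24.7%, 6.70% and 10.1% in NF-YAfl/fl. They did not overlap (p = 0.1, exact permutation test), and the difference of -13.7 percentage points was -8.28 points without NF-YAfl/fl replicate 1.

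The downstream first exon, which starts the short cytoplasmic forms, held 70.6%, 67.9% and 71.8% in NF-YAcKO and 45.1%, 63.5% and 49.4% in NF-YAfl/fl through its placed transcripts. Its main transcript NM_001253738 was at 284, 271 and 271 CPM against 109, 175 and 61.5 CPM. The libraries did not overlap, and the log2 fold change was 1.25 ± 0.367 (edgeR FDR 0.0996; DESeq2 0.00577). The unplaced XM_006501841 was at 94.5, 103 and 81.0 CPM against 38.9, 38.7 and 35.8 CPM, and was the Tpm3 transcript called higher, with a log2 fold change of 1.298 ± 0.118 (edgeR FDR 0.0059). It was not called by limma on TPM (FDR 0.0123 to 0.0132) or with any library left out.

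NM_001271764, from the same start, overlapped, with 36.4, 42.2 and 42.5 CPM in NF-YAcKO and 27.5, 14.9 and 47.4 CPM in NF-YAfl/fl. Placed transcripts with the internal exon at chr3:90088401-90088476 held 61.5% ± 1.99 of Tpm3 TPM in NF-YAcKO and 51.4% ± 14.8 in NF-YAfl/fl (SD, n = 3). Those with its alternative at chr3:90089048-90089123, NM_001271764 among them, held 8.68% ± 0.852 against 15.2% ± 9.55. The exon at chr3:90091013-90091091 gave the same shares. All of these groups overlapped (p = 0.4 each, exact permutation test). XM_017319678 was at 0, 1.51 and 4.58 CPM against 13.5, 14.0 and 13.4 CPM without overlap, and its log2 fold change of -2.74 ± 1.40 was not called (edgeR FDR 0.305). The other named Tpm3 transcripts were not called, with log2 fold changes of -1.44 (NM_001253740), -1.40 (XR_001783732), -0.56 (XM_006501839), -0.53 (XM_017319677) and -0.06 (XR_001783731). In CPM all of these overlapped between genotypes. As shares of Tpm3 TPM, XM_006501839 (0.507% against 1.22%), XM_017319677 (1.32% against 3.09%) and XR_001783732 (0.397% against 1.81%) were lower in NF-YAcKO without overlap. The shares of NM_001253740 and XR_001783731 overlapped.

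Tpm4 (chr8:72134975-72153142, plus strand) had a single transcript, NM_001001491, so that no exchange of forms could be read. It was at 1088, 1039.98 and 957 CPM in NF-YAcKO and at 828, 820.0 and 430 CPM in NF-YAfl/fl on the transcript scale. The lowest library was again NF-YAfl/fl replicate 3, and the log2 fold change was 0.57 ± 0.263 (edgeR FDR 0.254).

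The start regions are shown because the placed Tpm3 forms differed by first exon and NF-Y binds CCAAT. The RefSeq table (GRCm38.p6) held 5 windows for the 4 genes, each of 250 bases before and 50 after a start site, and the 250 bases before the start are printed for Tpm2 (chr4:43523555-43523804, minus strand), both starts of Tpm3 (chr3:90072401-90072650 and chr3:90079271-90079520, plus strand) and exon 1a of Tpm1 (chr9:67049214-67049463, minus strand). Capitals mark matches on either strand to CCAAT, to the E-box of muscle regulatory factors, spelled CANNTG, or to the TEAD factor motif, spelled CATTCC.
Tpm1 exon 1a start: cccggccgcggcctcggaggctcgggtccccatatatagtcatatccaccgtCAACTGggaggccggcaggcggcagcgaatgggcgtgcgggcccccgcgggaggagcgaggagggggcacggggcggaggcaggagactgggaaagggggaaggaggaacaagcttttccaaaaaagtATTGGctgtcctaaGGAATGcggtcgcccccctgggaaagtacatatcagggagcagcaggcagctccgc
Tpm2 start: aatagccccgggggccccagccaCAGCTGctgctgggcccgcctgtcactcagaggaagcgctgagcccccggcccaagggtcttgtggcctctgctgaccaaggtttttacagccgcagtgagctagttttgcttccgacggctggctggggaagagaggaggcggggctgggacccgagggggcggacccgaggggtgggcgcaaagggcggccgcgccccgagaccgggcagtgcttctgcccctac
Tpm3 upstream start: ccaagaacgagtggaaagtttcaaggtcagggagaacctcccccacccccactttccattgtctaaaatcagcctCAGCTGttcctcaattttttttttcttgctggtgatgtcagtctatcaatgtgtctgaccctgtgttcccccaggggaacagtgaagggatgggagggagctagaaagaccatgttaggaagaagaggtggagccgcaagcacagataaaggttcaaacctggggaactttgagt
Tpm3 downstream start: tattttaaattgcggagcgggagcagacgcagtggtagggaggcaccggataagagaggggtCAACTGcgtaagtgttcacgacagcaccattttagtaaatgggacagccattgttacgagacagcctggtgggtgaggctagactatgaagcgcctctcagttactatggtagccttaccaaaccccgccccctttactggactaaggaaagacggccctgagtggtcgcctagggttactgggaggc
CCAAT was found in 1 of the 5 windows, that of Tpm1, where it begins at position -70 from the start site and lies on the reverse strand, as ATTGG. It occurs in 37.4% of all 32851 windows. Each of the 5 windows held 1 CANNTG match, a motif of 72.3% of all windows, and CATTCC was found in the Tpm1 window alone, against 14.7% of all windows. No window of the 4 genes held the MEF2 or CArG motif (3.19% and 1.63% of all windows). None of these matches overlapped another.

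The genes around the tropomyosins were described by 3 lists, which were chosen with earlier results of these data known. Among all tested genes 7.67% were called lower and 4.65% higher. Of 15 partners in the sarcomeric thin filament (actins, troponins, tropomodulins, leiomodins, nebulin and Nrap), 15 were called lower and 0 higher. Their median log2 fold change was -5.64, with a range of -8.06 to -1.93, and their summed level was 143 to 269 CPM in NF-YAcKO and 8993 to 12391 CPM in NF-YAfl/fl. Neb, the giant protein that runs along the thin filament, was at 54.9, 72.7 and 110.1 CPM against 4451, 3622 and 3769 CPM (log2 fold change -5.64 ± 0.309, edgeR FDR 8.86e-05). Acta1, skeletal actin, had a log2 fold change of -6.71 ± 0.414, and Actc1, cardiac actin, of -8.06 ± 0.460, both without overlap. The smallest change of the 15, that of Tmod4 (-1.93 ± 0.385), differed from that of Tpm2 (-1.82 ± 0.136) by less than its SE, and the log2 fold changes of its striated form NM_009416 (-5.14) and of the striated Tpm1 form (-3.58) lay within their range.

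Of 13 partners in cytoplasmic filaments 0 were called in either direction, beside 7.67% of all tested genes called lower and 4.65% called higher. The median log2 fold change of the 13 was 0.40, with a range of -0.53 to 0.79. Actb, cytoplasmic actin, was at 7716, 7637 and 7436 CPM in NF-YAcKO and 4272, 5339 and 3752 CPM in NF-YAfl/fl, which did not overlap (log2 fold change 0.77 ± 0.164, edgeR FDR 0.0108). Actg1 gave 0.79 ± 0.117 and Myh9, a non-muscle myosin, -0.08 ± 0.1.

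Of 17 RNA-binding regulators of alternative splicing, 2 were called lower and 0 higher, with a median log2 fold change of -0.37. Among all tested genes 7.67% were called lower, which for 17 genes is close to the number found. Rbfox2, a splicing factor active in muscle, was at 201, 208 and 218 CPM in NF-YAcKO and at 541, 520 and 949 CPM in NF-YAfl/fl (log2 fold change -1.68 ± 0.241, edgeR FDR 0.00264). Rbm38 was at 7.08, 8.47 and 7.33 CPM against 24.2, 15.4 and 29.9 CPM (-1.60 ± 0.249, edgeR FDR 0.00349). Both were below the NF-YAfl/fl range in every NF-YAcKO library. Qk (-0.49 ± 0.145) and Mbnl2 (-0.41 ± 0.136) were not called. Uncalled log2 fold changes past 1 in size were those of Rbfox1 (-2.23 ± 0.517), Mbnl3 (1.16 ± 0.309), Rbm24 (-1.14 ± 0.284) and Celf2 (-1.07 ± 0.232). Ptbp1, a known repressor of muscle-specific tropomyosin exons, named after its values were seen, was at 359, 357 and 336 CPM against 184, 209 and 151 CPM, and its log2 fold change of 0.95 ± 0.132 was below the size required (edgeR FDR 0.00234). Whether any of these levels bears on the tropomyosin forms was not tested.

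**Figure D5:**
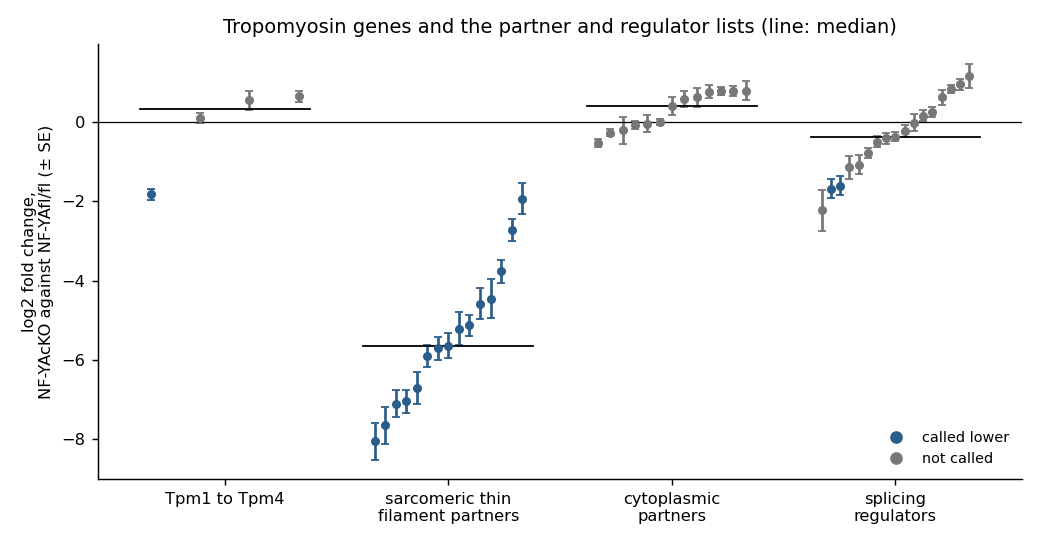
Log2 fold changes (vertical axis, ± SE, edgeR) of the 4 tropomyosin genes and of the members of 3 gene lists, ordered within each list, with the list median as a line and called genes in blue. All 15 thin filament partners lie between -8.06 and -1.93, and the 13 cytoplasmic partners between -0.53 and 0.79.

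Genes whose log2(CPM + 0.5) ran most like that of each tropomyosin over the 6 libraries were listed as a description among the 9456 genes whose mean reached 10 CPM. The points share the genotype difference, so they are not independent. For Tpm2 they were Dmxl1, Asb2, Ksr1, Csrp3 and Pfkm, of which Csrp3 encodes a muscle LIM protein and Pfkm the muscle phosphofructokinase. For Tpm3 they were Srsf9, Tfdp1, Zzz3, Sfxn1 and Nans, and for Tpm4 Loxl2, Ngfrap1, Pdlim1, Man2b1 and Slc2a1. For Tpm1 they were Cyp20a1, Rap2c, Ptprk, Ryk and Hif1a. The highest Pearson r was 0.98 for Tpm1, and among the members Tpm4 ran more like Tpm3 (0.923) and Tpm1 (0.902) than like Tpm2 (-0.628), over 6 libraries.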

How the data were processed

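RNA-seq was done on 3 NF-YAcKO and 3 NF-YAfl/fl cultures, 1 library each, grouped by the genotype in the labels. The authors prepared stranded total RNA libraries, ran Bowtie2 against mouse transcripts (mm10) and estimated levels with RSEM. Expected counts were deposited without normalization or filter. The deposited TPM values are scaled to effective length, and the deposited percent values give each transcript's share of its gene's TPM. The deposited effective lengths were used as given.

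Expected counts were rounded to whole numbers. Genes (17348) and transcripts (45367) that exceeded 10 counts in 2 or more libraries entered edgeR 4.0.16 in R 4.3.3 (TMM, quasi-likelihood, genotype only, Benjamini-Hochberg over all tested features). CPM values are TMM-normalised, separately for genes and transcripts. SEs were derived from the fold change and the F statistic. Shares were compared by exact permutation tests (scipy 1.17.1), whose smallest p is 0.1. Depth was 26936230 to 41118984 expected counts, and the floor of 3 counts covers counting error only.

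RefSeq transcripts were placed on GENCODE M21 exons where its RefSeq links and the lengths matched within 40 nt, or within 2 nt with another annotated last exon of the gene (1 transcript, NM_001277875). This rule and the grouping by exon 6 were chosen after the data were seen. Sequences are from GENCODE transcripts and the RefSeq promoter table, and exons were compared position by position without gaps. Named transcripts have a mean TPM of at least 1 or a mean share of at least 5 percent in either genotype. Of each list the 3 members with the highest mean CPM are named, besides those a result turns on. Splicing regulators with uncalled log2 fold changes past 1 in size are named as well. Mymk and Mymx were matched by older symbols as Tmem8c and Gm7325.

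On simulated counts, 195 of 196 changed genes and 177 of 183 changed transcripts were called, with 3 and 0 false calls. The simulation used the same dispersion for every feature, only large changes and no splitting of reads between forms. It therefore checks the code and does not measure how reliable the transcript calls are. Other settings were DESeq2 1.42.0, edgeR with DESeq2's size factors, no filter, filterByExpr, limma 3.58.1 on log2(TPM + 1) and log2(TPM + 0.1), FDR under 0.05, a replicate block, shares of expected counts and leaving out each library. The members and lists were chosen with earlier results of these data known. Nothing in the labels pairs mice across genotypes, and p-values measure the spread between these cultures.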

Additional observations from a re-analysis of the deposited data

How the results depend on the processing

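Tpm2 kept its call under all 14 alternatives (log2 fold change -1.98 to -1.69), and Tpm3 and Tpm4 stayed uncalled with the same direction. Tpm1 turned to -0.26 (-0.2627 and -0.2629) with limma on log2(TPM + 1) and log2(TPM + 0.1), with an effective length that differed between genotypes. The transcript calls depended most on the setting. DESeq2 called 7 lower and 6 higher, limma 1 higher with either pseudocount, and leave-one-out fits 0 to 2 lower and 0 to 1 higher (2 lower without NF-YAfl/fl replicate 3 and 1 without NF-YAfl/fl replicate 2, each other library leaving 0). These fits have fewer libraries. Splicing regulators called lower numbered 5 with DESeq2, 4 without a filter and with limma at either pseudocount, 5 at an FDR under 0.05 and 0 to 3 in leave-one-out fits, and those called higher 1 with DESeq2, 1 at an FDR under 0.05 and 0 to 2 in leave-one-out fits. Thin filament partners called lower numbered 13 to 15, and no cytoplasmic partner was called in any setting. As a share of expected counts, the exon 6a difference of Tpm2 was 47.5 percentage points and the Tpm1 share of the summed level differed by 3.17 points. The Tpm1 share of summed TPM, with a difference of 0.663 points, ran from -0.200 to 2.36 in leave-one-out values and turned to -0.200 and -0.175 without NF-YAfl/fl replicates 1 and 2. The uncalled XM_006511041 ran from -0.041 to 1.05 in leave-one-out fits. The uncalled XR_001783731 ran from -0.68 to 6.42 (0.13 and 0.22 without NF-YAcKO replicates 1 and 2), and was 0.23 and 1.59 with limma. Apart from Tpm1, for which the effective length is given, the cause of these changes was not tested.

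Deviations of libraries with the same replicate number gave r = 0.209, -0.103 and 0.0512 over genes, and other pairings gave -0.178 to 0.15. With 3 libraries per genotype these values cannot exclude a shared preparation. The replicate numbers were used as sample names in the main fit. With the replicate number as a block, 0 tropomyosin transcripts were called lower and 0 higher, 1 splicing regulator was called lower, 14 thin filament partners were called lower, Tpm2 kept its call (log2 fold change -1.81, edgeR FDR 0.00175) and XR_001783731 was at 4.16.

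With 3 libraries per genotype the spread between cultures limits most comparisons, and low transcripts are limited by how reads split between forms.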
